A study of Mus musculus with 23 samples.

Results

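Acta2 encodes smooth muscle alpha-actin, the actin of the contractile filaments of vascular smooth muscle. It was followed here through the conversion of A404 cells toward smooth muscle, on the probe that the platform annotation gives to this gene alone, 1 of 20280 probes and 1 of 8683 genes measured by probes with a single symbol. A404 is 1 clone of P19, a mouse embryonal carcinoma line, in which the Acta2 promoter drives a puromycin resistance gene. The Control arrays (n = 6) hold undifferentiated cells taken near confluence at time 0. The RA48 (n = 5) and RA96 (n = 6) arrays hold cells kept for 48 h and 96 h in all-trans retinoic acid at 1 µmol/L, added at about 30% confluence. The Puromycin arrays (n = 6) hold cells taken after 96 h of retinoic acid and 48 h of puromycin, and whether retinoic acid was kept on during those 48 h is not stated. Each replicate came from 5 to 6 plates, and the labels do not say whether replicates were grown as separate cultures. The p-values accordingly cover array-to-array spread, which may be technical. Cell RNA was labelled with Cy5 and hybridized against a common reference, Cy3-labelled RNA of pooled whole embryos of day 17.5, with no dye swap. Every value below is a log2 ratio of cell over embryo RNA unless a linear ratio is named, and a value of 0 means equal signal from both.

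Acta2 is among the early genes switched on in smooth muscle differentiation and is also made by myofibroblasts and, for a time, by embryonic heart and skeletal muscle. Its transcription is known to depend on serum response factor, which binds paired CArG boxes (CC, 6 bases mostly A or T, GG) and works with myocardin or the myocardin-related factors. Those cofactors are held by free actin and released when RhoA signalling drives actin into filaments, and TGF-beta is a second established input. Because the resistance gene is under the Acta2 promoter, puromycin selects for cells in which this promoter is active, so the Puromycin arrays are chosen by a property of the gene described here. In these bulk samples a change in the share of cells that express Acta2 and a change in Acta2 RNA per cell cannot be told apart.

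The promoter is shown because it drives both the gene and the selection. RefSeq places it on the minus strand at chr19:34255324-34255623 of GRCm38.p6 (250 bases before and 50 from the annotated start). The genome build behind the array design is not stated in the sources used here, so the coordinates belong to the RefSeq table. Capitals mark the CArG-like sites, searched on both strands as CC, 6 bases of which at least 5 are A or T, then GG.
Acta2: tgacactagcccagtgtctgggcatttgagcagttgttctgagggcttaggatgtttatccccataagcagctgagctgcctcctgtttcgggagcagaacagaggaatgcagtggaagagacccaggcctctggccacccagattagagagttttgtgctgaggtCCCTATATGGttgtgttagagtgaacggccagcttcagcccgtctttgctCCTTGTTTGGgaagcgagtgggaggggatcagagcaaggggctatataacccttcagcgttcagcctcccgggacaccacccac
A CArG-like site began 84 bases before the annotated RefSeq start and another 34 bases before it. Each had 1 core base that is neither A nor T. The window also held the reverse complement of CATTCC, the MCAT element bound by TEAD factors, 146 bases upstream. It held 3 matches to CANNTG, the E-box bound by basic helix-loop-helix factors, beginning 228, 220 and 182 bases upstream. A TATATAA began at position 9, counting the RefSeq start as position 1, and AGGTCA, a half-site of retinoic acid receptors, was not among these letters. A CArG-like site is uncommon in such windows: 11.3% of all 27025 genes with a window had one, and 10.4% of the 7022 such genes on the array. The same search gave 16.6% of genes for CATTCC, 75% for CANNTG, 3.84% for TATATAA and 18.1% for AGGTCA. A match is a description of the letters and not of a factor bound there.

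Acta2 was low against the embryo reference in undifferentiated cells and rose in both retinoic acid steps, with a smaller, uncalled difference after puromycin. The Control arrays read -5.06, -5.31, -5.91, -4.35, -4.23 and -4.52. After 48 h of retinoic acid the 5 arrays read -0.37, -0.48, -0.11, -0.32 and -0.40, close to the level of the whole embryo. At 96 h the 6 arrays read 1.86, 1.78, 1.99, 1.88, 1.69 and 2.03, all above the embryo reference. After puromycin they read 2.18, 2.23, 2.13, 2.77, 2.50 and 2.57. No array of a later stage was as low as any array of an earlier one. The means were -4.90 ± 0.65 (SD) on the 6 Control arrays, -0.34 ± 0.14 on the 5 RA48 arrays, 1.87 ± 0.13 on the 6 RA96 arrays and 2.40 ± 0.26 on the 6 Puromycin arrays.

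**Figure D1:**
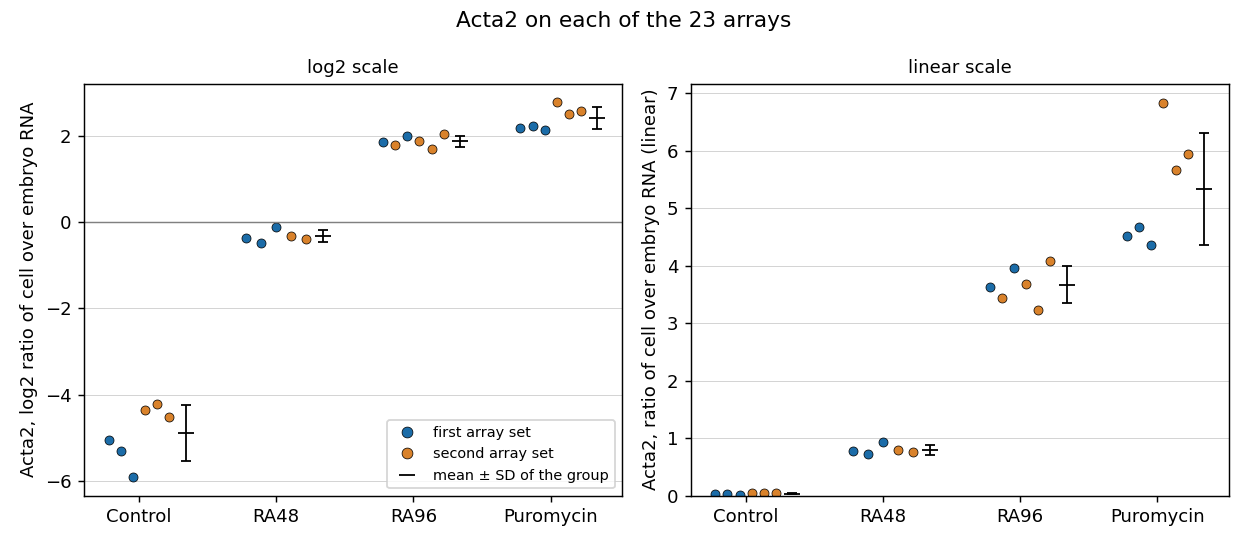
Acta2 on each of the 23 arrays, as log2 ratio (left) and linear ratio (right) of cell over embryo RNA, for Control, RA48, RA96 and Puromycin. Points are arrays coloured by array set and bars are the group mean ± SD; on the log2 scale the widest scatter is in Control (SD 0.65) and the narrowest in RA96 (SD 0.13), and on the linear scale the widest is in Puromycin (SD 0.976).

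The first step was the steepest in log2 terms. RA48 exceeded Control by 4.56 ± 0.22 (SE; 95% interval 4.12 to 5.01), 23.7-fold, with a limma adjusted p of 4.24e-13. In that comparison 34.4% of genes passed an adjusted p of 0.05, and Acta2 had the third largest rise among the 8683 genes. RA96 exceeded RA48 by a further 2.21 ± 0.22 (interval 1.76 to 2.65), 4.62-fold (limma adjusted p = 3.42e-07), where 22.4% of genes passed and 18 genes rose more. RA96 thereby stood 6.77 ± 0.21 above Control (109-fold, limma adjusted p = 8.25e-17), in a comparison where 51.5% of genes passed. No gene measured rose more between those stages.

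The step with puromycin was small and the tests of it differed. Puromycin exceeded RA96 by 0.52 ± 0.21 (interval 0.10 to 0.95), 1.44-fold, with an unadjusted limma p of 0.0183 and an adjusted p of 0.163, so it was not called, in a comparison where 7.82% of genes were and 297 genes rose more. The lowest Puromycin array (2.13) lay 0.09 above the highest RA96 array (2.03), and the exact two-sided permutation test of the Acta2 values alone gave p = 0.00216, the smallest that 6 against 6 arrays allow. Against Control the Puromycin cells were 7.30 ± 0.21 higher (interval 6.87 to 7.72), which is 157-fold (117-fold to 211-fold; limma adjusted p = 1.51e-17), where 53.2% of genes passed. Against RA48 they were 2.73 ± 0.22 higher, 6.64-fold (limma adjusted p = 3.47e-09), where 31% of genes passed.

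Arrays did not overlap in any of the 6 pairs of groups, each with an exact permutation p of 0.00216, also after adjustment over the 6, the smallest these group sizes allow. The share of all genes whose arrays did not overlap was 25.9% for RA48 against Control, 13.7% for RA96 against RA48 and 6.63% for Puromycin against RA96. It was 32.2% for RA96 against Control, 35.2% for Puromycin against Control and 23% for Puromycin against RA48. Over the 4 groups together the limma F test gave an adjusted p of 2.82e-17, with 60.8% of genes called. The span of the group means, 7.30, was the widest of the 8683 genes. This span and the folds against Control rest on Control linear ratios of 0.0166 to 0.0532, for which the detection limit is unknown. Between-group differences held 98.7% of the sum of squares of Acta2, against a median of 47.8% over all genes, and 16 genes had a higher share.

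The course looks different on a linear scale. The mean ratio was 0.0362 ± 0.0145 (SD) for Control cells, 0.796 ± 0.0804 for RA48, 3.67 ± 0.321 for RA96 and 5.34 ± 0.976 for Puromycin, with the same numbers of arrays. The first 48 h made up 62.6% of the log2 rise and 14.3% of the rise in linear ratio. The next 48 h made up 30.3% of the log2 rise and 54.3% of the linear one, and the puromycin step 7.18% and 31.4%.

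The 23 arrays fell into 2 sets that no label names. The first principal component of deviations from group means, 48.9% of that variance, separated 11 arrays (replicates 1 to 3 of Control, RA48 and Puromycin, and replicates 1 and 3 of RA96) from the other 12. The Acta2 values of the sets lay apart in Control and in Puromycin. Control averaged -4.37 ± 0.15 (SD, n = 3) in the second set and -5.43 ± 0.44 (n = 3) in the first, a difference of 1.06 with no overlap. Puromycin averaged 2.62 ± 0.14 (n = 3) in the second set and 2.18 ± 0.05 (n = 3) in the first, a difference of 0.44, also without overlap. In between, the second and first sets averaged -0.36 and -0.32 in RA48 and 1.85 and 1.93 in RA96, and overlapped. The Control SD of 0.65 was wider than that of 94.8% of genes, and the RA96 SD of 0.13 was wider than that of 19.5%.

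The size of the early rise differed between the sets, as did the Control level from which it is measured. The second set minus the first was 1.06 in Control, -0.04 in RA48 and -0.08 in RA96. The detection limit for Control values this low is unknown. RA48 exceeded Control by 5.11 ± 0.19 in the first set and 4.01 ± 0.12 in the second, a difference of 1.10 ± 0.24 (limma interaction, adjusted p = 0.0115, with 7.03% of genes called). RA96 exceeded Control by 7.35 and 6.21 in the sets, a difference of 1.14 (adjusted p = 0.00445, 12.6% of genes called). Puromycin exceeded Control by 7.61 and 6.98, a difference of 0.62 that was not called (adjusted p = 0.0563, 23.2% of genes called). From RA48 to RA96 the rise was 2.24 in the first set and 2.21 in the second, and the interaction had an adjusted p of 0.941. The puromycin step was 0.25 in the first set (adjusted p = 0.518) and 0.77 in the second (adjusted p = 0.00208), a difference of -0.52 ± 0.23 that did not pass (limma adjusted p = 0.298). With the set as a block that step was 0.59 ± 0.18 (adjusted p = 0.0302). Over all 4 groups the interaction F test gave an adjusted p of 0.00353, with 30.9% of genes called. The sets were read from the same values, so these interaction p-values are optimistic. The same limit holds throughout for p-values with the set as a block or within 1 set. Set and its interaction with group held 0.395% and 0.593% of the Acta2 sum of squares, of which group held 98.7%. Each was larger than the remaining scatter, 0.307%.

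Of the other actins, Actg2, Actc1 and Actg1 had a single-symbol probe, and Acta1 and Actb were not analysed here. Actg2, the enteric smooth muscle gamma-actin, is the other smooth muscle isoform. It read -2.81, -2.80, -2.70, -0.32, -0.31 and -0.42 in Puromycin, against -5.81, -5.50, -6.57, -3.69, -3.38 and -3.94 in Control. All Puromycin arrays lay above all Control arrays, although the array sets lay apart within each group. Puromycin exceeded Control by 3.25 ± 0.65, 9.54-fold (limma adjusted p = 0.000281), and RA96 exceeded Control by 2.95 (adjusted p = 0.000769). The single steps of Actg2 were not called: 1.45 ± 0.68 for RA48 against Control (adjusted p = 0.127), 1.49 for RA96 against RA48 (adjusted p = 0.126) and 0.31 for Puromycin against RA96 (adjusted p = 0.885). With the array set as a block they were 1.67, 0.92 and 0.66, with adjusted p of 2.49e-07, 0.00106 and 0.0163. These p-values are optimistic, as the sets came from the same values. When each set within a group was instead a random block, so that the spread between sets of a group entered the test, they did not pass (adjusted p = 0.27, 0.756 and 1).

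In the fit of group means alone, the other 2 measured actins were called in no comparison. Actc1, the cardiac alpha-actin, ranged from -0.25 to 1.05 in Puromycin and from -1.41 to 0.72 in Control, with no step called. Its steps of 0.48, -0.21 and 0.38 became 0.59, -0.50 and 0.56 with the set as a block, and all 3 then passed (adjusted p = 0.00115, 0.00816 and 0.00492). With the random block none passed (adjusted p = 0.638, 0.869 and 1). Actg1, the cytoplasmic gamma-actin, ranged from -0.34 to -0.01 in Puromycin and from -0.55 to -0.02 in Control, and its groups overlapped in all 6 comparisons. Puromycin and Control differed by 0.12 ± 0.11 for Actg1 (limma adjusted p = 0.379). Signal shared between actin transcripts by similar sequence was not tested.

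**Figure D2:**
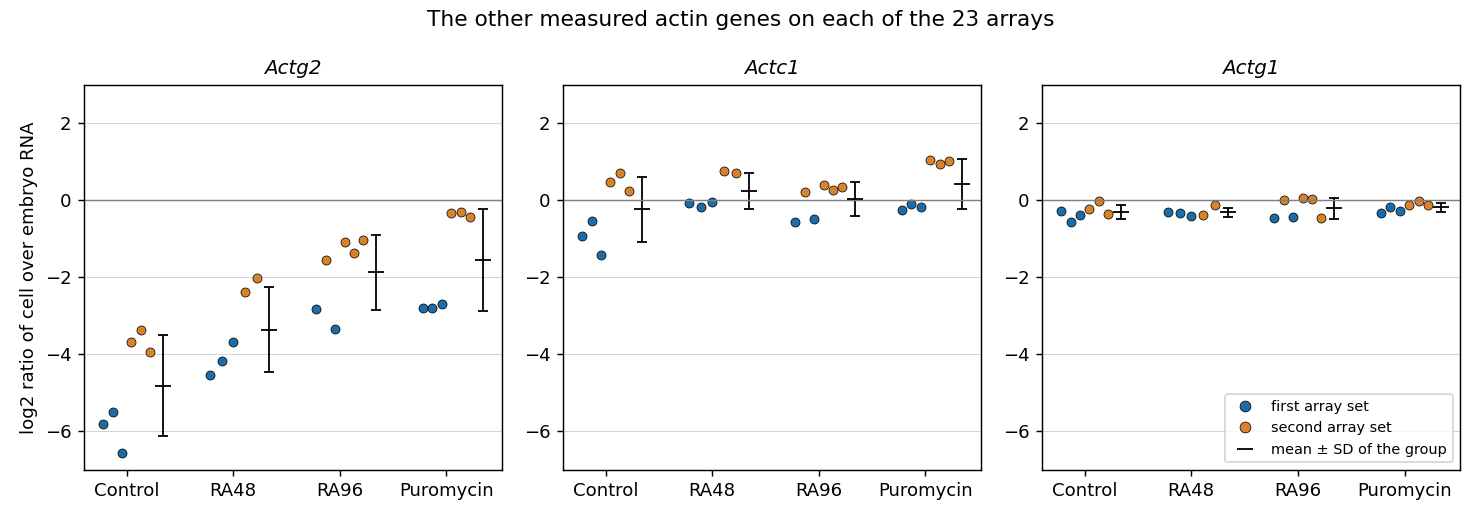
Actg2, Actc1 and Actg1 on each of the 23 arrays, as log2 ratio of cell over embryo RNA by group, coloured by array set, with bars for the group mean ± SD. Actg2 climbs within each set while the sets stay apart, Actc1 moves with the set, and Actg1 stays between -0.55 and 0.07.

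CArG-like sites were found in the windows of all 3 actins that have one in the RefSeq table, and Actg2 has none there. The upstream Acta2 site is set beside the sites with 6 of 6 core bases A or T and the Actc1 site that has its letters, each with 5 flanking bases and with the site in capitals. Actc1 had 4 sites in all, and the other two are not printed.
Acta2 upstream site, chr19:34255448-34255457: gaggtCCCTATATGGttgtg
Actc1 site, chr2:114053041-114053050: tagctCCCTATATGGccatt
Actc1 site, chr2:114052913-114052922: ggcgaCCAAATAAGGcaagg
Actg1 site, chr11:120348576-120348585: gatcgCCATATATGGacatg
The first Actc1 site has the same 10 bases as the upstream Acta2 site. In the fit of group means alone Acta2 was called in 5 of the 6 comparisons and Actc1 in none. In the first array set alone Actc1 passed for RA48 against Control (0.86, limma adjusted p = 0.00311) and Puromycin against Control (0.78, 0.00322). In the second it passed for RA96 against RA48 (-0.43, 0.0357), Puromycin against RA96 (0.7, 0.00288) and Puromycin against Control (0.53, 0.00274). Without Control replicate 5 Puromycin against Control passed too (limma adjusted p = 0.0487). The Actg1 site has a core of A and T alone, and Actg1 was called in no comparison of group means.

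The contractile genes of smooth muscle rose in number with Acta2 during retinoic acid treatment, and 3 of 27 rose at the puromycin step. The list, written from general knowledge, holds 33 genes, of which 27 were measured. In RA48 against Control 19 rose and 0 fell, with a median change of 1.05, where 18% of all genes rose and 16.4% fell and their median was -0.02. In RA96 against RA48 11 rose and 1 fell (median 0.51; 10.8% of all genes rose and 11.6% fell). In Puromycin against RA96 3 rose and 1 fell (median 0.03; 4.7% and 3.12% of all genes). These counts changed with the fit: 1 rose and 6 fell in the first array set alone, and 6 rose and 3 fell with the set as a block. More genes passed in such fits. The limma F test over the 4 groups called 6753 genes in the first set and 6883 with the block, against 5279 without it. Shares of all genes at the puromycin step in those fits are not given here. In Puromycin against Control 20 rose and 0 fell (median 1.17; 24.6% and 28.6% of all genes). Acta2 counts among the rises in each of these but the puromycin step, and without it 18 of 26 rose in the first 48 h, with a median of 1.03.

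Myl9, the regulatory myosin light chain of smooth muscle, rose in both retinoic acid steps. Its mean was -3.02 ± 0.66 in Control, -0.69 ± 0.13 in RA48, 1.35 ± 0.19 in RA96 and 1.55 ± 0.34 in Puromycin (SD). It rose by 2.33 in the first 48 h and by 2.04 in the next (limma adjusted p = 5.55e-08 and 1.89e-06), and the puromycin step of 0.19 was not called (adjusted p = 0.748). Lpp, a LIM protein of focal adhesions, rose by 2.49 and 1.20, with -0.01 after puromycin. Csrp1, an actin-associated LIM protein, rose by 2.42 in the first step, and its later changes of 0.24 and -0.24 were not called. Fhl1, a LIM-only protein of muscle, rose by 1.62, 1.80 and 0.51 at the 3 steps (adjusted p = 1.05e-09, 1.98e-09 and 0.0112). Filip1l, the filamin A interacting protein 1-like gene, rose by 2.53, 1.27 and 0.77, and Cald1, the actin-binding caldesmon, by 1.50, 0.99 and 0.59. For Cald1 2 of 3 probes were called at each of these steps. The puromycin-step calls of Fhl1, Filip1l and Cald1 were all lost with the random block of group and set (adjusted p = 1 for each), and so was the second step of Cald1 (adjusted p = 0.0694). Over the 85 named and contractile genes, that block kept 50 of 64 calls in RA48 against Control, 24 of 53 in RA96 against RA48, 63 of 71 in Puromycin against Control, and 1 of 22 in Puromycin against RA96, that of Rarb. Of all genes it called 12.5% in RA48 against Control, 2.29% in RA96 against RA48 and 24.5% in Puromycin against Control. At the puromycin step it called 0.173% of all genes, so those puromycin-step calls other than that of Rarb rest on a fit without it. This block was read for these genes after their values were seen. It is named below for some genes only, and other calls given below were lost with it too.

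Cnn1, calponin, used as a marker of smooth muscle, rose by 0.97 ± 0.20 in the first 48 h (limma adjusted p = 0.000731), with 0.51 and -0.32 at the later steps, neither called. Myh11, the smooth muscle myosin heavy chain, was called in no comparison: Puromycin and Control differed by 0.19 ± 0.57, an error wider than that of most genes of the list. Mylk, the myosin light chain kinase, differed by 0.17 ± 0.75. Svil, supervillin, rose by 0.54 and then fell by 0.49, both lost with the random block (limma adjusted p = 0.23 and 0.533). Pdlim7, an actin-associated PDZ and LIM protein, rose by 1.05 in the first step and fell by 0.27 after puromycin (adjusted p = 0.0229), a call lost without RA96 replicate 4 or any of Puromycin replicates 1 to 3 (adjusted p up to 0.069). That fall was called on 1 of its 2 probes (-0.5 and -0.04).

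**Figure D3:**
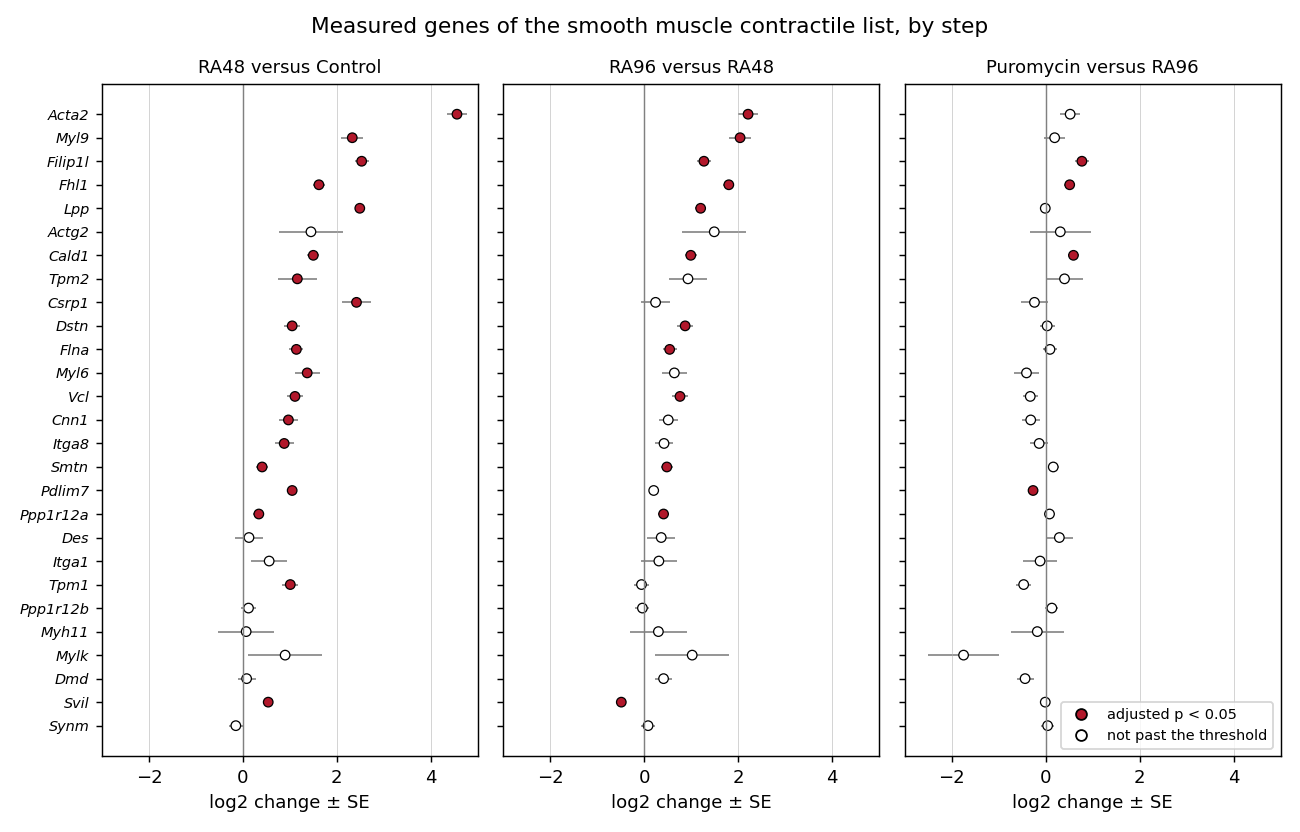
Log2 change ± SE of the 27 measured contractile genes at each step (RA48 against Control, RA96 against RA48, Puromycin against RA96), with filled points for a limma adjusted p under 0.05. Filled points number 19, 12 and 4 in the panels, and Acta2 has the largest change in the first 2.

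Among these genes 23 besides Acta2 have a promoter window, and 9 of them (39.1%) held a CArG-like site, against 10.4% of genes on the array. With 6 of 6 core bases A or T the share was 6 of 23 (26.1%), against 1.61%. Smooth muscle contractile genes include many known serum response factor targets, so this share is a description of the list. For comparison with Acta2, the sites with 6 of 6 core bases A or T are shown for 4 genes that rose in both retinoic acid steps. The other sites of the list, those of Lpp and Dstn and a second one of Myl9 among them, are not printed.
Myl9, chr2:156775303-156775312: agaggCCTAATAAGGccggg
Filip1l, chr16:57549180-57549189: gcgcgCCTTATAAGGctgag
Fhl1, chrX:56779581-56779590: gatcaCCTAAAATGGttaag
Vcl, chr14:20929171-20929180: tatgcCCTTATAAGGagcgc
Vcl, vinculin of focal adhesions, rose by 1.11 and 0.76 in the retinoic acid steps and changed by -0.33 after puromycin, which was not called. Genes of the list with no CArG-like site in the window also rose, among them Cald1 and Csrp1. Dmd and Synm held a CArG-like site, that of Synm with 1 core base neither A nor T, and were called in none of the 3 steps.

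Of the 12 genes whose log2 ratios followed Acta2 most closely over the 23 arrays, 1, Lpp, is on the contractile list. Pearson's r over all 23 arrays, which share the group means and the array sets and is given as a description, was 0.996 for Lpp, 0.995 for Akap2, an anchor of protein kinase A, and 0.995 for Fndc3b, a fibronectin type III domain protein. It was 0.994 for Anxa5 and Anxa1, both calcium-dependent phospholipid-binding annexins, and 0.994 for B2m, the light chain of MHC class I. Fosl2, an AP-1 subunit, had 0.992, as had Ccn2, connective tissue growth factor. Mbd2, a reader of methylated DNA, and Tnfrsf12a, the TWEAK receptor, had 0.990, Msrb3, a methionine sulfoxide reductase, 0.989 and Lamp2, a lysosomal membrane protein, 0.988. Such values were common: of 8379 genes compared, 359 (4.28%) had r above 0.9, with a median of -0.07 over all genes. Without the Control arrays r was between 0.914 and 0.984 for these 12 genes.

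A high correlation did not mean a similar size or a rise at every step. At the puromycin step the 12 genes changed by -0.13 (Tnfrsf12a) to 0.71 (Anxa1), against 0.52 for Acta2. The rises of the 12 genes between Control and Puromycin were between 22.2% (Lamp2) and 95.4% (Anxa1) of that of Acta2. By the distance of centred group means the nearest gene was Anxa1 (root mean square difference 0.25). Its mean was -3.91 ± 0.38 in Control, -0.01 ± 0.18 in RA48, 2.34 ± 0.25 in RA96 and 3.05 ± 0.34 in Puromycin (SD). Prss23, a serine protease, followed at 0.51, S100a6, a calcium-binding protein, at 0.81, Ccn2 at 0.90 and Igf2, insulin-like growth factor 2, at 0.92. Prss23 rose to 4.55 ± 0.14 in Puromycin, against -2.18 ± 0.20 in Control, 92.2% of the Acta2 rise. Igf2 was more scattered than these, with an SD of 0.90 in RA96 and 1.02 in Control.

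**Figure D4:**
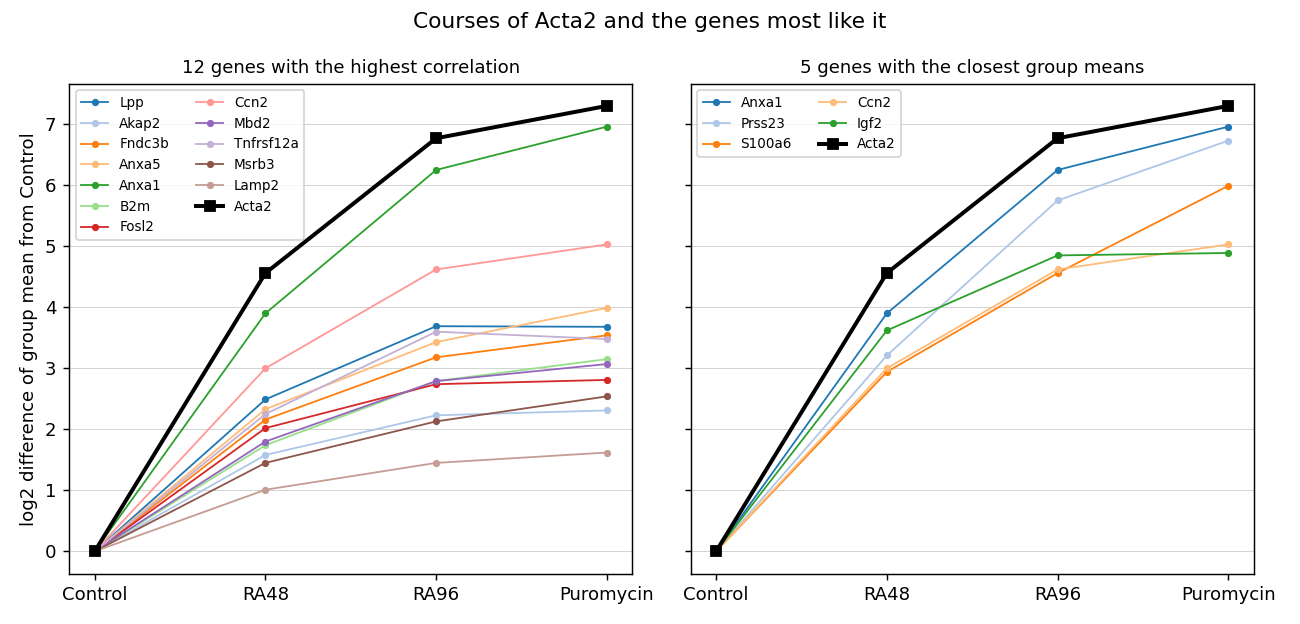
Group means as log2 differences from Control for Acta2 (black) and the genes most like it by correlation and by distance of group means. The 12 correlated genes reach 22.2% to 95.4% of the Acta2 rise from Control to Puromycin, Lpp and Tnfrsf12a do not rise at the puromycin step, and Anxa1 lies nearest.

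Which genes head the list depended on the measure. By Spearman's rank correlation only Anxa5 of the 12 remained, and Vim, vimentin of intermediate filaments, led with 0.990, named after its value was seen. In the first array set alone 4 of the 12 remained, in the second 7, and with the set shift removed 8. Without the Control arrays 3 remained, and B2m led with 0.984. Of the 12, 9 have a promoter window and 2 of those (22.2%), Anxa5 and Lpp, held a CArG-like site, against 10.4% of genes on the array.

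The most opposite course was that of Dnmt3b, the de novo DNA methyltransferase of early embryonic cells, with r = -0.994. Dnmt3b averaged 5.24 ± 0.39 in Control, 1.93 ± 0.11 in RA48, 0.74 ± 0.22 in RA96 and 0.20 ± 0.11 in Puromycin (SD). Hip1r, a clathrin and actin adaptor, had r = -0.981, and Cbx7 and Phc1, subunits of Polycomb repressive complex 1, had -0.980 and -0.979. Plcg2, a phospholipase C, had -0.980 and Nr5a1, the nuclear receptor SF-1, -0.979. Of all genes compared 229 (2.73%) had r under -0.9. Once group and set means were removed, other genes tracked the remaining scatter of Acta2: Rpl28 (0.929), Becn1 (0.922), Nme2 (0.910) and Rpl13a (0.908), against a median of 0.20 over all genes. Over the 23 arrays as they stand the r of these genes was -0.043, 0.752, 0.456 and -0.069.

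Of 56 genes listed as regulators of Acta2 transcription 38 were measured. In RA48 against Control 15 rose and 3 fell (median 0.19), where 18% of all genes rose and 16.4% fell. In RA96 against RA48 8 rose and 0 fell (median 0.02; 10.8% and 11.6% of all genes), but 10 rose and 4 fell with the array set as a block, and 10 rose and 7 fell in the first set. The shares of all genes belong to the fit without the set. In Puromycin against RA96 2 rose and 2 fell (median -0.01), near the 4.7% and 3.12% of all genes. Myocd was not analysed here. Srf, serum response factor itself, was called at no step: 0.19 ± 0.12, -0.06 and 0.09 (limma adjusted p = 0.27, 0.797 and 0.794). Mrtfa, a myocardin-related cofactor, was called at none either, with 0.01 ± 0.23, 0.32 and -0.13. Tead1, a factor that binds MCAT elements, rose by 1.01 ± 0.09 in the first 48 h (adjusted p = 1.03e-08) with 0.02 and -0.01 afterwards. Srf, Mrtfa and Tead1 are named for their role, with their values seen.

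The retinoic acid receptor gene Rarb, itself a target of retinoic acid, showed the largest early rise of the list. It rose by 3.01 ± 0.20 in the first 48 h (limma adjusted p = 1.08e-10), changed by -0.21 in the next, and fell by 1.56 after puromycin (adjusted p = 2.55e-05). Nr2f1 and Nr2f2, orphan receptors induced by retinoic acid, rose by 2.04 and 1.51 in the first step. Nr2f2 then rose by 0.68, a call lost with the random block (limma adjusted p = 0.524). The fall of Nr2f2 after puromycin, -0.56 (adjusted p = 0.026), was lost without any one of RA96 replicates 4 to 6 or Puromycin replicates 1 to 3 (adjusted p up to 0.0765). Gata6, a factor of smooth muscle and endoderm, rose by 2.04 and its 3 probes ranged from 1.12 to 3.84, with 2 of them called. Hopx, a homeodomain cofactor that restrains serum response factor, fell in the first step (-0.86), as did Sp1, a general activator (-0.43). Ybx1, a repressor of Acta2 through single-stranded DNA, also fell (-0.32, adjusted p = 0.0476, lost in 13 of 23 fits without 1 array). With the random block the falls of Hopx, Sp1 and Ybx1 did not pass (limma adjusted p = 0.2, 0.181 and 0.616). By single probes, the fall was called on 1 of 2 for Sp1 and on 0 of 2 for Ybx1.

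Later rises included factors known to repress Acta2 as well as activators. Purb, a single-stranded DNA binder that represses Acta2, rose by 1.22 ± 0.09 and then 1.11 (limma adjusted p = 4.96e-10 and 1.61e-08), and the change of -0.18 after puromycin was not called. Klf4, a repressor of smooth muscle genes, rose at each step, by 0.79, 0.93 and 1.15 (adjusted p = 0.00633, 0.00375 and 0.000979). In the second array set alone its first 2 steps did not pass (0.59 and 0.64, adjusted p = 0.122 and 0.139), and with the random block none did (adjusted p = 0.266, 0.329 and 0.819). Prrx1, a homeodomain partner of serum response factor, rose by 1.25 in RA96 against RA48, a call lost with the random block (adjusted p = 0.314). Hey2, a Notch target, rose by 0.68 (adjusted p = 0.0234) in that step, lost without any one of RA48 replicates 1 to 3 or RA96 replicate 2 (adjusted p up to 0.0815). Fosl1, an AP-1 subunit, rose by 1.42 ± 0.31 after puromycin (adjusted p = 0.00809), by 1.89 in the first array set and 0.73 in the second (adjusted p = 6.37e-05 and 0.06), and with the random block its adjusted p was 0.656.

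Several ligands and matrix regulators of the TGF-beta pathway rose. The list of TGF-beta and RhoA inputs holds 35 genes, 27 of them measured. In RA48 against Control 11 rose and 2 fell (median 0.28), where 18% of all genes rose and 16.4% fell. In RA96 against RA48 12 rose and 4 fell (median 0.45; 10.8% and 11.6% of all genes), and in Puromycin against RA96 6 rose and 2 fell (median 0.15; 4.7% and 3.12% of all genes). Among ligands, Tgfb2 rose by 1.90 ± 0.16 and 2.37 in the retinoic acid steps (limma adjusted p = 6.13e-09 and 1.98e-09). Inhba, the activin beta A subunit, rose by 3.33 from RA48 to RA96 and by 1.38 after puromycin, and its mean was 4.65 ± 0.35 in Puromycin against -0.44 ± 0.74 in Control (SD). Tgfb3 fell by 0.84 at first and rose by 0.55 and 0.56 later. Tgfb1 changed by 0.01 in the first step and rose by 0.57 and 0.45 in the next.

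Thbs1, thrombospondin 1, which activates latent TGF-beta, rose by 2.88, 1.23 and 1.06, with a mean of 3.08 ± 0.42 in Puromycin against -2.09 ± 0.20 in Control (SD). Ltbp1, which holds latent TGF-beta in matrix, rose by 1.34 and 1.31, and its fall by 0.34 after puromycin (limma adjusted p = 0.0215) was lost without RA96 replicate 4 or 6 or Puromycin replicate 3 (adjusted p up to 0.0649). Itgb5, an integrin subunit that binds latent TGF-beta with alpha v, fell by 0.54 and 0.62. Both falls were lost with the random block (adjusted p = 0.229 and 0.253). Of receptors, Tgfbr2 rose by 1.04 in RA96 against RA48 (adjusted p = 0.000882). Tgfbr3, betaglycan, fell by 0.47 there and by 0.54 after puromycin, and Tgfbr1 fell by 0.29 in RA96 against RA48. The fall of Tgfbr1 was lost without RA48 replicate 1 or 3 (adjusted p up to 0.0591). The falls of Tgfbr3 were lost without any one of RA48 replicates 1 to 3 (up to 0.0798) and any one of Puromycin replicates 1 to 3 (up to 0.0606). Each was called on 1 of its 2 probes.

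On the RhoA and actin side, Rhob, a small GTPase, rose by 2.58 ± 0.20 in the first 48 h (limma adjusted p = 1.19e-09) and Tmsb4x, thymosin beta 4, which sequesters free actin, by 2.47 ± 0.39 (adjusted p = 3.9e-05). Neither was called at the later steps. Limk1, a kinase of cofilin, fell by 0.52 from RA48 to RA96, a call lost with the random block (adjusted p = 0.527). Zyx, zyxin of focal adhesions, rose by 0.87 in that step and by 0.46 after puromycin (adjusted p = 0.00606). Rhoa changed by 0.46, 0.45 and -0.04, none called.

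The cell types were checked on marker lists. Of 12 measured markers of undifferentiated embryonal carcinoma cells 9 fell and 0 rose in Puromycin against Control, where 28.6% of all genes fell and 24.6% rose. They included Sox2 (-5.70), Utf1 (-3.82) and Nanog (-1.15). Zfp42 and Esrrb differed by -0.09 and 0.02, not called. The median of these markers on an array lay between -0.37 and 0.00 in Puromycin, against 1.79 to 2.21 in Control. Fibroblasts, heart and skeletal muscle can also express Acta2. Of 7 fibroblast markers 4 rose and 0 fell in Puromycin against Control (24.6% and 28.6% of all genes). In the first array set alone 3 rose and 2 fell, and in the second 4 rose and 0 fell. Postn, periostin, was up by 4.50 and Dcn, decorin, by 2.80, while Col3a1 differed by -0.16 and was not called. Of 18 striated muscle markers 3 rose and 1 fell, below the 24.6% and 28.6% of all genes in that fit. The count depended on the array set: 8 rose and 3 fell with the set as a block. In the first set alone 6 rose and 4 fell, and in the second 10 rose and 3 fell. Shares of all genes in those fits are not given here. Myl2 was up by 1.82 (adjusted p = 0.00353, and 0.0696 with the random block) and Myl7 by 1.31. The marker that fell was Myh7 (-0.63, limma adjusted p = 8.87e-05), and Myod1 (-0.27) and Myog (0.01) were not called. The array medians of fibroblast markers lay between -1.55 and -0.48 in Puromycin against -2.96 to -1.08 in Control, and those of striated markers between -1.52 and -0.71 against -1.73 to -0.92. The part of such cells in the Acta2 values was not tested.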

How the data were processed

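Per the labels, the G2565AA scanner of Agilent and its Feature Extraction software produced the values. The deposited table holds 1 value per probe and array, read here as a log10 ratio. Its log base, centring and direction are not stated. Base 10 was read from the range of the values and the direction from the dyes, and values were divided by the log10 of 2 (0.301) to give log2 ratios, with no further normalization. Over the compared rows array medians lay between -0.077 and 0.020. Spot intensities and background were not analysed here and detection limits are therefore unknown. The number of arrays limits the precision.

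Of 21446 rows 1166 with no gene, rounded to at most 6 significant digits and probably control spots, were left out. The platform annotation gave 1 symbol to 11100 of the other 20280 probes, several to 442 and none to 8738. Single-symbol probes were averaged per gene, for 17863 rows, 8683 of them genes (1926 with several probes). A single limma 3.58.1 model (R 4.3.3) held the 4 group means of 23 arrays, with Benjamini-Hochberg adjustment over all rows and calls at 0.05, and was tested on simulated data. Acta2 was also tested by exact permutation of arrays. Array sets came from the first principal component of deviations from group means. Motifs were searched in RefSeq windows of 300 bases. Genes are named by a fixed rule: the measured actins; the 12 highest and 6 lowest correlations; the 5 nearest group means; the 4 highest correlations of deviations; up to 4 largest called rises and falls per list and step; and the 2 largest called rises of other cell types. Genes named beyond it were chosen for their role with values seen. The member, the lists and the rule were chosen with earlier results of these data known. Endothelial and neural markers were also listed.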

Additional observations from a re-analysis of the deposited data

Results flagged for a closer look

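In the RA96 group replicate 5 stood apart for a pair of the genes that follow Acta2. Anxa5 read 0.65 on that array and between 0.90 and 1.01 on the other RA96 arrays. B2m read 0.17 there and between 0.43 and 0.55 on the others. In both cases the gap to the nearest array was 0.70 of the whole range of the group. These were 2 of 64 groups of arrays examined, and chance alone gives about 1 in 20. Acta2 read 1.69 on the same array, the lowest of its RA96 values, and was not itself set apart.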

How the results depend on the processing

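The Acta2 comparisons other than Puromycin against RA96 kept their direction and their call in all 36 alternatives each. In fits that left out 1 array Puromycin exceeded Control by 7.09 to 7.43 and RA48 exceeded Control by 4.36 to 4.70, and in the other alternatives by 6.98 to 7.61 and 4.01 to 5.11. The puromycin step, not called at 0.52, passed with the array set as a block (0.59, adjusted p = 0.0302), in the second set alone (0.77, 0.00208), after quantile normalization (0.54, 0.00891) and with only the 2 groups in the fit (0.52, 0.0245), and the cause was not tested. It did not pass without any 1 array (0.45 to 0.58, adjusted p from 0.0521 to 0.306) or with a random block of group and set (0.51, adjusted p = 1). The interaction of set and group had an adjusted p of 0.000672 to 0.011 without any 1 array. Among the lists, calls at the puromycin step numbered 9 contractile genes with the set as a block (6 rose, 3 fell) and 7 in the first set (1 rose, 6 fell), against 4 with neither (3 rose, 1 fell). Regulators called with that block were 14 in RA96 against RA48 (8 without it) and 9 at the puromycin step (4 without it). They were 17 and 9 in the first set, and 3 in RA96 against RA48 in the second. The shares of all genes called at these steps in the set fits are not given here.

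Whether replicate numbers pair the samples could not be decided. Of 33 same-numbered pairs 30 deviated together with a correlation above 0.1, and the lowest was -0.46. The array sets largely follow the replicate numbers, and pairs of different numbers are not given here for comparison. With a replicate block Puromycin exceeded RA96 by 0.52 (adjusted p = 0.089), RA96 exceeded RA48 by 2.16 and RA48 exceeded Control by 4.61, and no call of Acta2 changed, while regulators called were 13 in RA96 against RA48 and 7 at the puromycin step.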

Other observations

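Of 6 measured endothelial markers 4 rose and 1 fell in Puromycin against Control, where 24.6% of all genes rose and 28.6% fell. Flt1, a VEGF receptor, was 1.34 ± 0.10 higher there. It rose by 1.60 in the first 48 h of retinoic acid, fell by 0.80 in the next and rose by 0.54 after puromycin. Kdr, the other VEGF receptor measured, was 0.89 higher in Puromycin than in Control, by limma adjusted p = 2.25e-07. The endothelial marker that fell was Esam (-0.31, limma adjusted p = 0.0154). Of 9 neural markers 2 rose and 2 fell, no more than those shares of all genes. Those that fell were Stmn2 (-0.43, limma adjusted p = 0.000254) and Nefl (-0.33, limma adjusted p = 0.0262). Gap43, a growth cone protein, was 2.15 higher in Puromycin than in Control and had risen by 2.58 in the first 48 h. Nes, nestin of progenitor cells, was 0.69 higher (limma adjusted p = 0.0241), a call lost without Control replicate 1 or 3 or any of Puromycin replicates 4 to 6 (adjusted p up to 0.0694).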
